A study of Danio rerio with 116 samples.

Results

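The chromosome ends described here are the terminal 2 Mb on both sides of zebrafish chromosomes 1-3 and 5-25, which makes 48 ends in 24 chromosomes, divided into 960 windows of 100 kb. On the start side an end runs from position 1, and on the far side it runs back from the highest position with a CG call in any of the files, so that a far end is counted from the outermost mapped call and not from a telomere. The ends held 340094 of the 3648141 CG calls of the series. They made up 7.60% of the length of these 24 chromosomes and 10.4% of their calls. The members were fixed by position alone, and everything beyond the ends on the same 24 chromosomes is called the inner part.

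The series holds 116 low coverage whole genome bisulfite libraries of Tg(vasa:EGFP) zebrafish, in which the promoter of the germ plasm gene vasa drives EGFP in germline cells. EGFP +ve cells (59 libraries) and EGFP -ve control cells (57 libraries) were sorted from fish of 14 ages, given in days post fertilisation (dpf). Up to 28 dpf (1, 2, 4, 7, 11 and 14, then 21, 25 and 28 dpf) a library came from 10 pooled fish with no sex given, and after that (35, 40, 45, 50 and 70 dpf) from 1 female or 1 male fish. Sex was presumptive up to 50 dpf. Cells, age and sex together define 38 groups with 3 libraries apiece, apart from EGFP +ve cells of 28 dpf with 5. All fish carried the transgene, and no group had a treatment. Whole fish were dissociated up to 14 dpf and the gonadal region after that, so that age and tissue cannot be told apart in the control cells, and a 40 µm strainer kept out large oocytes. The sorted cell types could not be checked against marker genes, since only DNA methylation was measured. Libraries held 8735 to 163870 calls in all and 686 to 14794 at the ends, and the 95% interval of a library's end methylation reached 1.51 to 6.66 percentage points to either side when reads were taken as the sampling unit, which covers counting error alone. The libraries were sequenced in 8 runs.

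Telomeres cap linear chromosomes, and the DNA next to them is commonly rich in G and C, in repeats and in sites of meiotic recombination, which in male zebrafish lies mainly towards the chromosome ends. In vertebrates most CG sites are methylated, and the methylation is copied onto new DNA by Dnmt1. CG-dense stretches such as promoter islands are the main exception and often carry little methylation. A read with many CG calls tends to come from a CG-dense stretch of DNA. Calls per read also depend on read length, which was not measured. Reads with 7 or more calls are named CG-dense reads below for short.

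CG calls were denser at the chromosome ends than in the inner part in every library of both cell types. Merged over libraries, the ends held 3543 calls per Mb and the inner part 2507, a ratio of 1.41. The ratio ranged over the 57 control libraries from 1.20 through a median of 1.43 to 1.91. Over the 59 EGFP +ve libraries it ranged from 1.07 through 1.39 to 1.91. The mean log2 ratio was 0.53 ± 0.15 in control libraries (SD, n = 57) and 0.50 ± 0.15 in EGFP +ve libraries (SD, n = 59). Both differed from 0 in a two-sided sign-flip permutation test (p = 1e-05 for each, the smallest that 100000 draws can give).

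The higher density had 2 measured components. Reads with a CG call were 1.21 times as dense at the ends as in the inner part, and this held in 114 of 116 libraries. Each of these reads also carried more calls, 3.82 at the ends against 3.27 in the inner part, and this held in 116 of 116 libraries. The number of distinct CG positions called was 3171 per Mb at the ends and 2272 per Mb in the inner part. Each position was called 1.12 times at the ends and 1.10 times in the inner part. At this low coverage calls seldom fell on the same position in either part, and the source of the extra calls was not tested. Reads repeating the positions and states of another read of the same library made up 0.253% of reads at the ends and 0.330% in the inner part.

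The density was highest at the very edge and fell inwards. The outermost 100 kb had 2.27 times the call density of the inner part, and all 116 libraries were denser there. The fold was 1.84 in the next 100 kb, 1.50 between 500 and 600 kb, 1.29 between 1000 and 1100 kb and 1.11 between 1900 and 2000 kb. Calls per read fell from 4.19 in the outermost step to 3.59 in the innermost one. Per library, the outermost 500 kb exceeded the innermost 500 kb of the ends by 0.62 ± 0.23 on the log2 scale in control (SD, n = 57) and by 0.60 ± 0.26 in EGFP +ve cells (SD, n = 59), in 57 of 57 and 59 of 59 libraries (permutation p = 1e-05 for each). Beyond the 2 Mb limit the density stayed slightly above that of the inner part as a whole, at 1.13-fold between 3900 and 4000 kb.

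**Figure D1:**
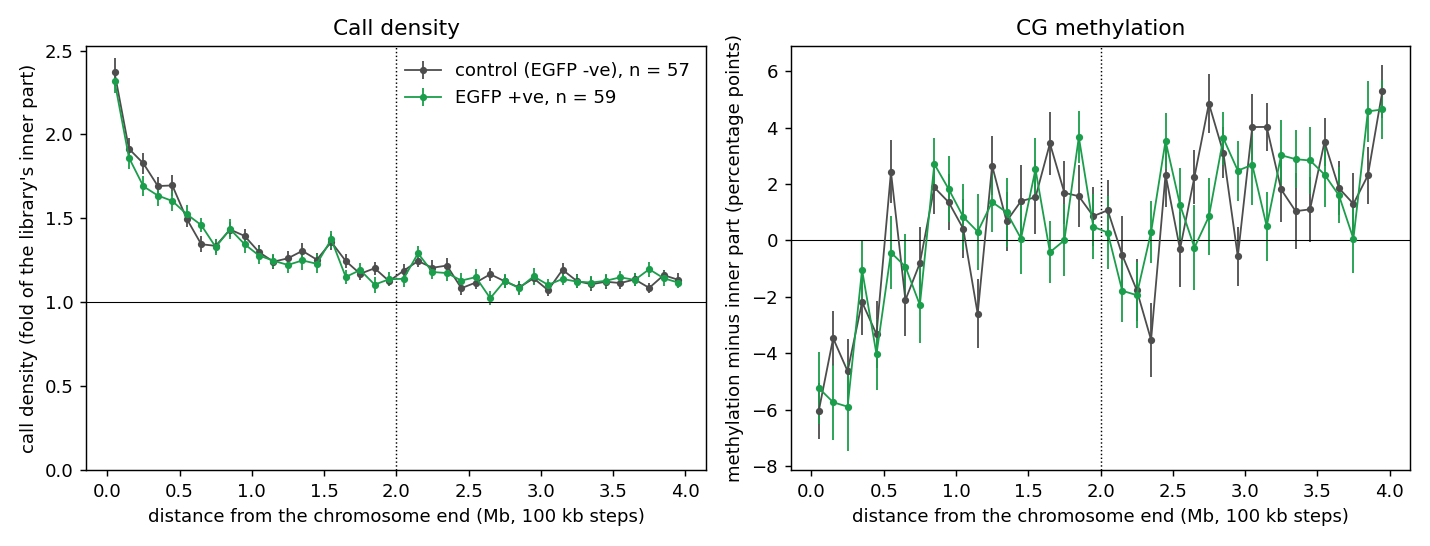
Call density (left, fold of the library's inner part) and CG methylation minus that of the inner part (right, percentage points) against the distance from the chromosome end in steps of 100 kb, as means over libraries with standard errors. The dotted line marks 2 Mb. Density falls from 2.34-fold on average over all libraries at the edge, and methylation lies below the inner part over the outermost 500 kb in both cell types.

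The dense windows were spread over many ends. Of the 960 windows, 130 (13.5%) held more than 2 times the median of an inner window, which was 241 calls, against 1.67% of the 11650 full inner windows. In the outermost 100 kb the share was 50.0%, or 24 of 48 ends. The 3 windows with most calls were the outermost one of the far end of chromosome 17 (chr17:53242793-53342792, 1769 calls, GRCz10), a window of the start of chromosome 5 (chr5:800001-900000, 1343 calls) and the outermost one of the start of chromosome 10 (chr10:1-100000, 951 calls). They differed in make-up. The chromosome 17 window had 511 reads with 3.46 calls each from 106 libraries, of which 11.4% repeated another read of their library, whereas the chromosome 5 window had 170 reads with 7.90 calls each from 83 libraries and 0.588% repeats. No single library gave more than 5.78% of the calls in any of these 3 windows. The 3 windows with fewest calls all lay at the start of chromosome 3, between 1.1 and 1.9 Mb, with 21, 26 and 44 calls. No window was without a call, and 955 had at least 100. The build was not in hand, so the windows were not placed in genes.

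Methylation of the ends as a whole was high and close to that of the inner part. It ranged over control libraries from 69.4% through a median of 76.2% to 81.3%, and over EGFP +ve libraries from 70.8% through 77.8% to 88.3%. The means were 75.9% ± 2.53 in control (SD, n = 57) and 78.3% ± 3.76 in EGFP +ve cells (SD, n = 59), against 76.8% ± 2.01 and 79.5% ± 3.27 in the inner part. The ends were lower than the inner part of the same library by 0.87 percentage points in control (-0.871 ± 2.02, SD, n = 57, 38 of 57 libraries lower, permutation p = 0.00196) and by 1.14 in EGFP +ve cells (-1.14 ± 2.21, SD, n = 59, 41 of 59 libraries lower, permutation p = 0.0002). These small differences depended on how calls were weighted. With each read counted once the control difference turned to 0.579 (permutation p = 0.00594) and the EGFP +ve difference shrank to -0.0230 (permutation p = 0.917). With the inner part weighted to the calls per read of the ends they were -0.177 (permutation p = 0.51) and -0.262 (permutation p = 0.374).

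Within the ends, the lower methylation lay at the edge. The outermost 500 kb was 72.5% ± 3.48 methylated in control (SD, n = 57) and 74.9% ± 5.43 in EGFP +ve cells (SD, n = 59). That was 4.25 percentage points below the inner part in control (-4.25 ± 3.38, SD, n = 57, 51 of 57 libraries lower) and 4.55 below it in EGFP +ve cells (-4.55 ± 4.40, SD, n = 59, 50 of 59 libraries lower), with permutation p = 1e-05 for each. Between 500 and 1000 kb the difference from the inner part was 0.636 in control (permutation p = 0.155) and 0.0569 in EGFP +ve cells (permutation p = 0.921). Between 1500 and 2000 kb methylation was higher than in the inner part, by 1.77 in control (adjusted permutation p = 0.0180 over 8 tests) and by 1.23 in EGFP +ve cells (adjusted permutation p = 0.0448). Without the outermost 500 kb the difference of the ends from the inner part was positive, at 0.823 in control (permutation p = 0.0157) and 0.525 in EGFP +ve cells (permutation p = 0.086). Methylation also departed from the inner part beyond the 2 Mb limit. Merged over libraries, it differed by -0.923, -1.96 and -2.02 in the steps from 2100 to 2400 kb. Every step from 2400 to 4000 kb lay above the inner part, with 4.53 between 3900 and 4000 kb.

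From edge to base, the outermost 500 kb lay 6.03 percentage points below the innermost 500 kb of the ends in control (-6.03 ± 5.79, SD, n = 57, 50 of 57 libraries lower) and 5.78 below it in EGFP +ve cells (-5.78 ± 6.19, SD, n = 59, 49 of 59 libraries lower), with permutation p = 1e-05 for each. Unlike the difference of the whole ends, this one kept its direction and call under every alternative tried. It was smallest with each read counted once, at -2.88 in control and -2.74 in EGFP +ve cells (permutation p = 1e-05 for each). With the innermost 500 kb weighted to the calls per read of the outermost 500 kb it was -5.70 and -5.62. Leaving out any 1 of the 48 ends gave -6.62 to -5.59 in control and -6.34 to -5.08 in EGFP +ve cells.

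The edge differed most from the inner part in reads with 7 or more CG calls. In the outermost 500 kb such reads were 64.3% ± 7.66 methylated in control (SD, n = 57) and 66.7% ± 9.32 in EGFP +ve cells (SD, n = 59), against 73.1% ± 2.51 and 74.3% ± 2.79 for reads of this class in the inner part. The gap was -8.81 ± 7.29 percentage points in control (SD, n = 57, 49 of 57 libraries lower) and -7.65 ± 9.04 in EGFP +ve cells (SD, n = 59, 46 of 59 libraries lower), with an adjusted permutation p = 5.33e-05 over 16 tests for each. For reads with fewer than 7 calls the gap was 0.0117 ± 3.29 in control (SD, n = 57) and -1.16 ± 2.82 in EGFP +ve cells (SD, n = 59). Of the classes under 7 calls, reads with 4-6 calls in EGFP +ve cells were lower at the edge (-1.29, adjusted permutation p = 0.0390), and the others did not pass after adjustment. The gap of the CG-dense reads exceeded that of the other reads by 8.83 percentage points in control (-8.83, lower in 49 of 57 libraries) and by 6.49 in EGFP +ve cells (-6.49, lower in 45 of 59 libraries), each with a permutation p = 1e-05. These reads gave 39.8% of the calls of the outermost 500 kb in control and 38.2% in EGFP +ve cells, against 27.3% and 27.2% in the inner part. Over the whole 2 Mb ends the gap of CG-dense reads was -2.87 ± 4.73 in control (SD, n = 57) and -2.64 ± 4.64 in EGFP +ve cells (SD, n = 59). That of reads with fewer than 7 calls had the other sign, at 1.05 ± 1.82 and 0.626 ± 1.62.

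**Figure D2:**
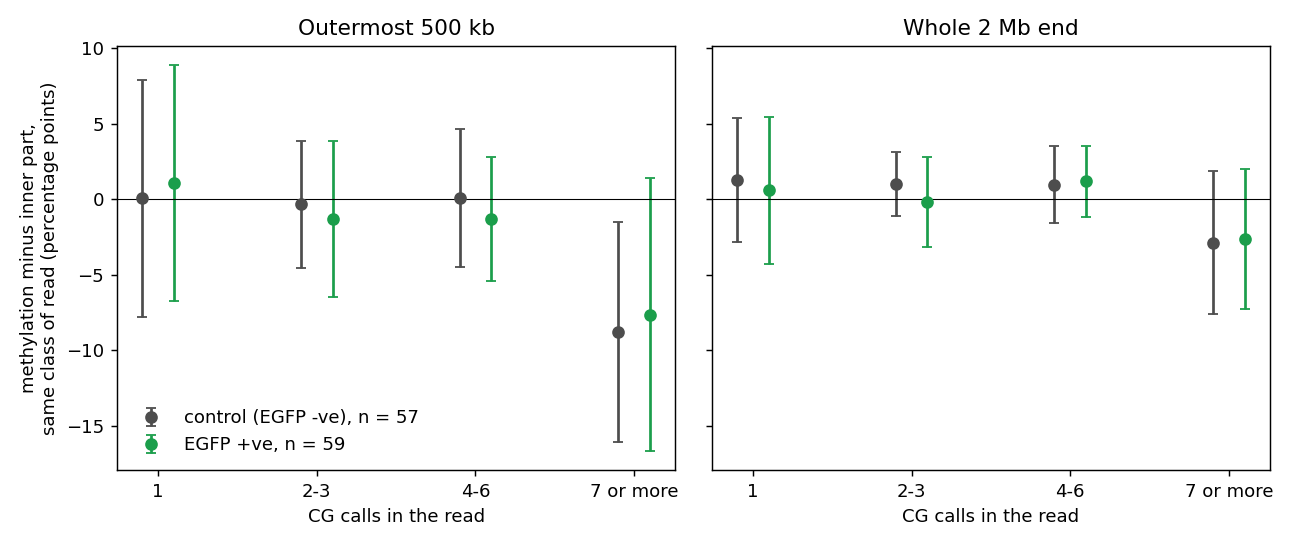
Methylation of the outermost 500 kb (left) and of the whole 2 Mb ends (right) minus that of the inner part, in percentage points, for reads with 1, 2-3, 4-6 and 7 or more CG calls, as means over libraries with SD. In the outermost 500 kb the reads with 7 or more calls lie at -8.81 in control and -7.65 in EGFP +ve cells, and the other classes lie between -1.31 and 1.07.

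Whole reads showed the same edge. Among reads with at least 3 calls, those with none methylated made up 12.1% ± 2.79 in the outermost 500 kb of control libraries (SD, n = 57) and 9.84% ± 1.21 in the inner part. In EGFP +ve libraries the shares were 11.9% ± 3.69 and 9.15% ± 1.35 (SD, n = 59). The share was higher at the edge by 2.24 percentage points in control (48 of 57 libraries) and by 2.76 in EGFP +ve cells (43 of 59 libraries), with permutation p = 1e-05 for each. Fully methylated reads were fewer at the edge by 1.78 percentage points in control (-1.78, permutation p = 0.00111) and by 3.61 in EGFP +ve cells (-3.61, permutation p = 3e-05). These shares were not matched for calls per read, which were higher at the edge. The part of calls per read in these differences was not tested. Over the whole ends the share of reads with none methylated was 9.96% ± 1.90 in control and 9.09% ± 2.09 in EGFP +ve cells, close to the inner part.

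The 48 ends differed among themselves more than the ends differed from the inner part. Merged over libraries, their methylation ran from 68.3% through a median of 77.6% to 83.1%, with 5565 to 9517 calls each. Against the inner part of the same chromosome they ran from -9.75 through -0.988 to 6.01 percentage points, and 33 of 48 were lower. For comparison, stretches of about 2 Mb of the inner part were each set against the rest of it. In control cells 60.4% of ends and 51.5% of these stretches were lower, and in EGFP +ve cells 64.6% and 50.9%. Both cell types were lower at 26 ends and higher at 12, and the rank correlation of the control and EGFP +ve differences over the 48 ends was 0.761, given as a description over ends that share runs and fish. The outermost 500 kb was less methylated than the innermost 500 kb at 35 of 48 ends, and denser in calls at 46 of 48. Start and far ends were alike in their medians, at -1.01 and -0.759 percentage points and at 1.37-fold and 1.35-fold the call density of the inner part. Over the 24 chromosomes the 2 ends of a chromosome had a rank correlation of 0.187 for methylation and 0.279 for density.

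**Figure D3:**
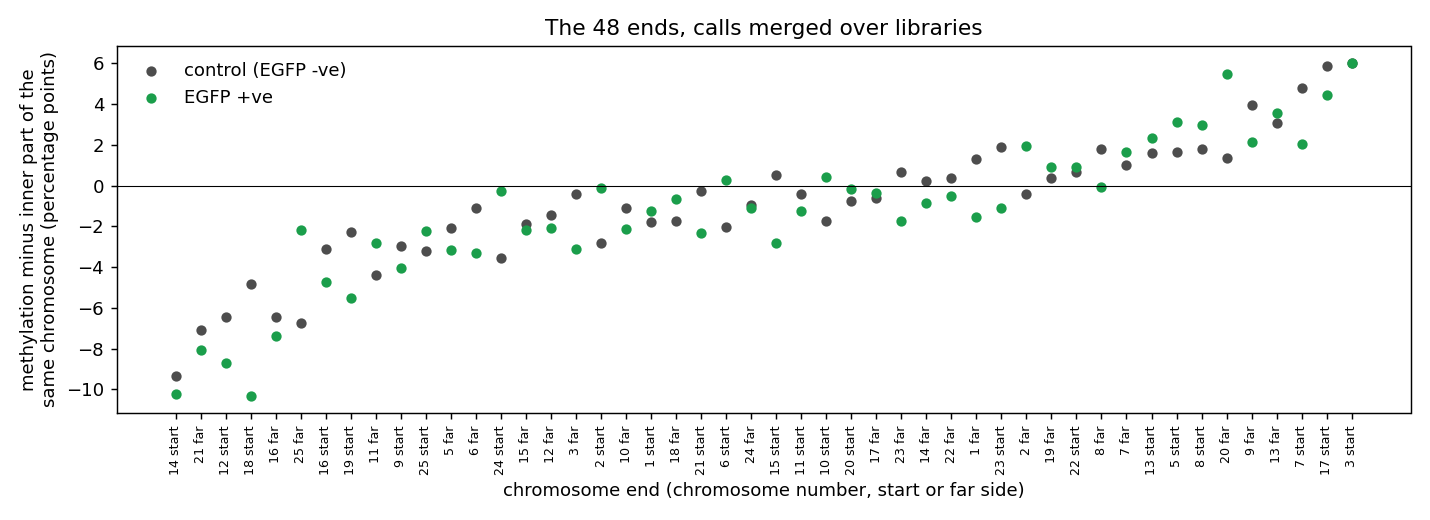
Methylation of each of the 48 ends minus that of the inner part of its own chromosome, in percentage points, for control and EGFP +ve calls merged over libraries, ordered by the value in all libraries. The start of chromosome 14 lies lowest at -9.75 over all libraries and the start of chromosome 3 highest at 6.01.

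The start of chromosome 14 (chr14:1-2000000) was the lowest against the inner part of its own chromosome, at 68.0% in control and 68.8% in EGFP +ve cells, which differed from the inner part of chromosome 14 by -9.34 and -10.2 percentage points. Its reads with 7 or more calls in the outermost 500 kb were 42.6% methylated, against 74.6% for such reads in the inner part. Its outermost 500 kb was 61.3% methylated over all reads and its innermost 500 kb 82.1%. The far end of chromosome 21 (chr21:43892819-45892818) followed with a difference of -7.54 (71.9% methylated), with 62.8% in its outermost and 80.5% in its innermost 500 kb, and then the start of chromosome 12 (chr12:1-2000000) with -7.46 (72.3%). All 3 had lower values at the edge than at the base.

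The start of chromosome 3 (chr3:1-2000000) was the highest against its own chromosome, at 82.4% in control and 83.9% in EGFP +ve cells, 6.03 and 6.01 percentage points above the inner part of chromosome 3. It ran the other way along its length, with 85.3% in the outermost and 78.6% in the innermost 500 kb, and its CG-dense reads at the edge were 89.0% methylated against 71.1% in the inner part. The starts of chromosomes 17 (a difference of 5.23, 82.1% methylated) and 7 (3.54, 80.3%) were next, and both were as methylated at the edge (84.1% and 81.8%) as at the base (84.4% and 81.0%). Over all 48 ends the gap of CG-dense reads at the edge ran from -32.1 through a median of -8.49 to 17.9 percentage points and was below 0 at 39 ends. That of reads with fewer than 7 calls ran from -8.86 through -0.284 to 8.11.

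All 48 ends were denser than the inner part of their chromosome when merged over libraries, from 1.07-fold through a median of 1.36-fold to 1.96-fold. In control cells alone 47 of 48 were denser. The far end of chromosome 17 (1.96-fold) and the starts of chromosomes 22 (1.82-fold) and 20 (1.75-fold) were the densest. The far ends of chromosomes 14 (1.07-fold), 24 (1.12-fold) and 16 (1.13-fold) were the least dense. The outermost 100 kb alone was denser than the inner part at 46 of 48 ends, with a median of 1.90-fold and a top value of 7.56-fold at the far end of chromosome 17. Density and methylation were only weakly related over the 48 ends, with a rank correlation of 0.280.

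The ends were also set against other stretches of the genome. Each of 633 regions of about 2 Mb, the 48 ends included, was compared with the inner part of its own chromosome by a sign-flip permutation test over libraries, adjusted over all 633. In control cells 7 of 48 ends were called lower, or 14.6%, beside 17.7% of all regions, and 5 higher, or 10.4%, beside 20.7%. In EGFP +ve cells 7 ends were called lower, or 14.6%, beside 13.7% of all regions, and 4 higher, or 8.33%, beside 18.5%. With regions of 1 Mb, the outermost 1 Mb of the 48 ends was called lower more often than regions in general. In control cells 9 of 48 were called lower, or 18.8%, beside 10.1% of all 1263 regions, and 4 higher, or 8.33%, beside 15.3%. In EGFP +ve cells 10 were called lower, or 20.8%, beside 7.52% of all regions, and 3 higher, or 6.25%, beside 13.8%. These shares are a description, with no test between ends and inner regions. The ends held more calls per Mb than the inner part, so the shares compare regions of unequal depth, and an equal difference is more easily called where calls are denser. At 2 Mb, the ends called lower in both cell types were the starts of chromosomes 12 and 14 and the far ends of 16 and 21. The starts of chromosomes 3 and 17 and the far end of 13 were called higher in both. Without all replicates A the ends called in either direction fell from 12 to 7 in control cells and from 11 to 7 in EGFP +ve cells. Without all replicates C those of EGFP +ve cells fell to 6. The calls over all 633 regions fell as well. Without replicates A they went from 243 to 162 in control cells and from 204 to 122 in EGFP +ve cells. Without replicates C those of EGFP +ve cells fell to 140. The spread over the 48 ends (SD 3.32 percentage points in control) was smaller than over the 585 inner regions (SD 4.35).

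At the scale of 100 kb, methylation of end windows covered a wide range. Of the 955 windows with at least 100 calls, 36 (3.77%) were under 60% methylated, against 4.66% of inner windows, and 28 (2.93%) were over 90%, against 3.36%. In the outermost 100 kb 5 of 48 windows were under 60% and none of the 48 was over 90%. The lowest window was the 5th from the far end of chromosome 7 (chr7:73581454-73681453, 32.9%, 563 calls), with 27.8% in control and 39.2% in EGFP +ve cells. The innermost window of the start of chromosome 9 followed (chr9:1900001-2000000, 33.0%, 467 calls), with 32.2% and 33.8%, and then a window of the far end of chromosome 25 (chr25:35698546-35798545, 38.7%, 326 calls), with 30.3% and 52.0%. The highest windows were chr13:1400001-1500000 (94.4%, 393 calls), chr17:1400001-1500000 (92.3%, 534 calls) and chr2:1300001-1400000 (91.9%, 285 calls), all on start sides and all over 1 Mb from the edge. These windows were picked by their values and are given as a description.

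EGFP +ve cells were more methylated than control cells at the chromosome ends between 1 and 28 dpf. The difference was 2.57 percentage points as a mean over 9 ages, and it was positive at 7 of them, with 7 and 28 dpf at -3.26 and -0.996 (permutation p = 0.00091, adjusted p = 0.00819 over 18 comparisons). At 1 dpf the control libraries were at 78.0, 77.8 and 80.2% and the EGFP +ve libraries at 84.8, 83.7 and 82.1%. At 2 dpf they were at 77.4, 78.0 and 77.9% and at 81.9, 83.9 and 83.3%. At both ages every EGFP +ve library lay above every control library. The same held at 11 and 14 dpf, and at 45 dpf in each sex. At the remaining ages the groups overlapped. Without all replicates A the mean difference over the 9 ages was 2.13 (adjusted permutation p = 0.162) and without all replicates B 2.58 (adjusted permutation p = 0.0626), each with fewer libraries. At 4 dpf the groups overlapped, with 76.4, 72.7 and 69.4% in control and 82.4, 79.6 and 75.3% in EGFP +ve cells. At 7 dpf the means were reversed, with 72.8, 76.9 and 78.7% in control and 76.3, 71.5 and 70.8% in EGFP +ve cells.

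**Figure D4:**
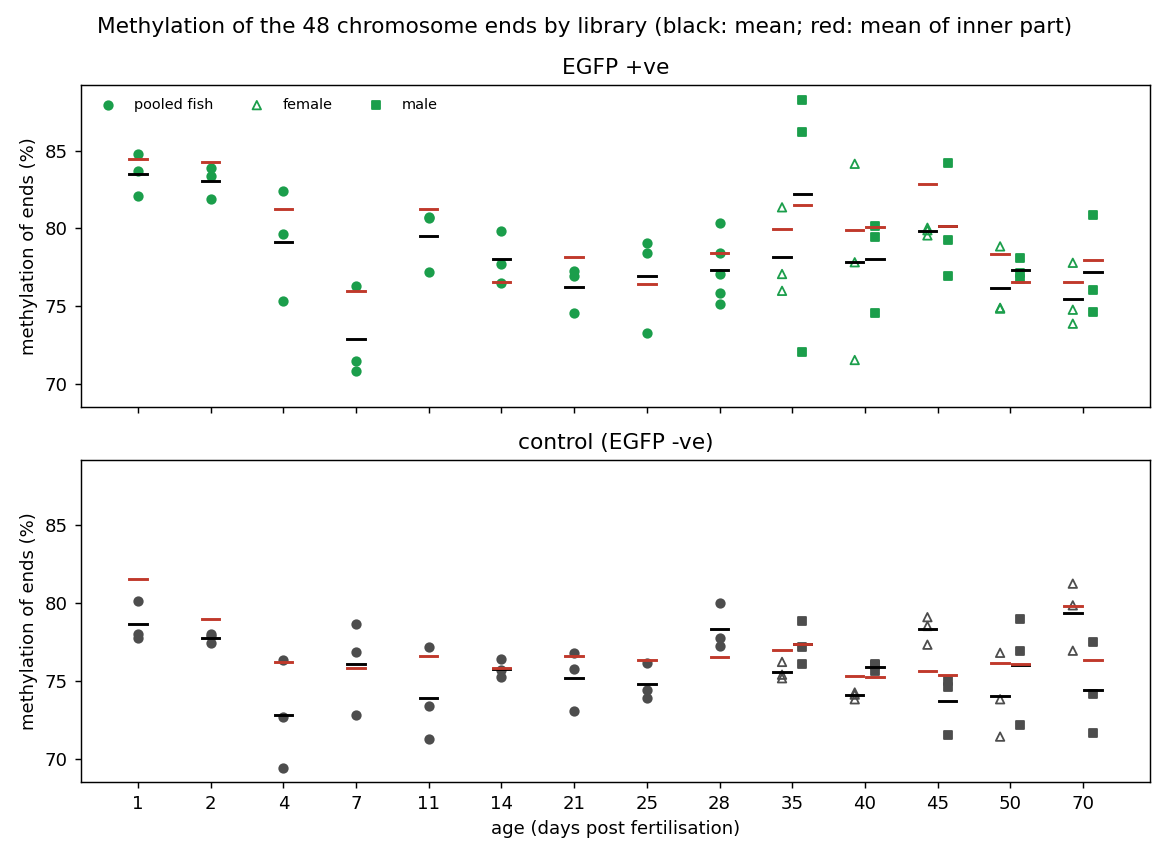
Methylation of the 48 ends in each library by age, EGFP +ve above and control below, with circles for pooled fish, open triangles for females and squares for males. Black bars are group means at the ends and red bars group means of the inner part. EGFP +ve libraries of 1 and 2 dpf lie between 81.9 and 84.8%, above all control libraries of these ages.

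From 35 to 50 dpf the ends of EGFP +ve cells had higher means at all 4 ages in both sexes, by 2.50 percentage points in females (permutation p = 0.0213, adjusted p = 0.0767) and by 3.67 in males (permutation p = 0.027, adjusted p = 0.081). Neither difference passed after adjustment. Within sequencing runs they were 3.93 (adjusted permutation p = 0.0482) and 6.39 (adjusted permutation p = 0.0112). In males the widest values were at 35 dpf, where EGFP +ve libraries were at 88.3, 86.2 and 72.1% and control libraries at 77.2, 76.1 and 78.9%. Leaving out single libraries gave 1.71 to 3.29 in females, with an adjusted permutation p of 0.00666 to 0.136. Of these 24 removals 2 passed. They were replicate B of EGFP +ve cells of 40 dpf (3.29, adjusted permutation p = 0.00666) and replicate C of control cells of 50 dpf (2.85, adjusted permutation p = 0.0369). In males leaving out single libraries gave 2.91 to 4.94, with an adjusted permutation p of 0.00585 to 0.181. Of these 24 removals 1 passed. It was replicate C of EGFP +ve cells of 35 dpf, the lowest of the values given (4.94, adjusted permutation p = 0.00585). At 70 dpf the difference was -0.562 over both sexes (exact permutation p = 0.755). Female EGFP +ve libraries then held 74.8, 77.8 and 73.9% against 81.3, 79.9 and 76.9% in control, and male ones 74.6, 76.0 and 80.9% against 74.2, 77.5 and 71.6%.

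Over all ages and both sexes the ends and the inner part differed between the cells by similar amounts. The inner part differed between the cells by 2.72 percentage points over the 19 age and sex strata and the ends by 2.46. The difference in end-minus-inner methylation was -0.267 (permutation p = 0.486, adjusted p = 0.703, positive in 9 of 19 strata). Each of the 4 stretches of 500 kb that make up the ends had a higher mean in EGFP +ve cells, by 2.45, 2.14, 2.96 and 2.13 percentage points from the edge inwards. Between females and males of 35 to 70 dpf, the cell difference differed by -2.27 at the ends (permutation p = 0.184, adjusted p = 0.276). For end-minus-inner methylation it differed by -1.84 (permutation p = 0.0992, adjusted p = 0.198), and neither passed. The values of each sex at 35 to 50 dpf follow as a description. In females the inner part was higher in EGFP +ve cells by 4.23 percentage points and the ends by 2.50, and the outermost 500 kb differed by -0.215. Their end-minus-inner value differed by -1.73 on average, with -0.401, -0.794, -5.73 and -0.00805 at 35, 40, 45 and 50 dpf. In males the inner part was higher by 3.56, the ends by 3.67 and the outermost 500 kb by 5.59. Call density of the ends over the inner part differed by -0.03 on the log2 scale (permutation p = 0.167, adjusted p = 0.376).

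No single end was called different between the cells. Region by region, with labels exchanged within age and sex, 0 of 48 ends passed an adjusted p of 0.05 for methylation beside 2.21% of all 633 regions, and 7 ends had an unadjusted p under 0.05 (14.6%), beside 19.7% of inner regions. Without all replicates C 1 end passed, beside 1.42% of all regions. EGFP +ve cells had the higher value at 42 of 48 ends and at 489 of 585 inner regions, with medians of 2.36 and 2.54 percentage points. The far end of chromosome 25 had the smallest p among ends, with 7.10 percentage points and a positive difference in 14 of 19 strata (permutation p = 0.00582, adjusted p = 0.115). For the share of a library's calls, 0 of 48 ends passed beside 0% of all regions, and 3 had an unadjusted p under 0.05 (6.25%), beside 5.13% of inner regions. With 5565 to 9517 calls per end, smaller differences could not be called at this depth.

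The ends of EGFP +ve cells had lower mean methylation in libraries of 7 to 28 dpf than in those of 1 to 4 dpf. Libraries of 1 to 4 dpf ranged from 75.3% through a median of 82.4% to 84.8% (n = 9) and those of 7 to 28 dpf from 70.8% through 77.1% to 80.8% (n = 20). The ranges overlapped, with group means of 79.1% at 4 dpf, 72.9% at 7 dpf and 79.5% at 11 dpf. The means of early and later libraries differed by 5.02 percentage points (permutation p = 0.00016, adjusted p = 0.00288). Labels were exchanged among libraries without regard to age, here and in the control cells below, so these p-values do not measure the spread between ages. Within sequencing runs the difference was 5.75 (adjusted permutation p = 0.0235). Without all replicates A it was 4.79 (adjusted permutation p = 0.133) and without all replicates B 4.39 (adjusted permutation p = 0.0626), each with fewer libraries. The inner part of the same libraries differed by 5.46 and the end-minus-inner value by -0.440 (permutation p = 0.63), so the ends and the inner part were lower together.

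Control libraries of 1 to 4 dpf ranged from 69.4% through 77.8% to 80.2% at the ends (n = 9) and those of 7 to 28 dpf from 71.2% through 76.0% to 80.0% (n = 18). The means differed by 0.720 (permutation p = 0.508). The inner part of control cells was 2.64 percentage points higher in the early libraries, and the end-minus-inner value 1.92 lower (-1.92, permutation p = 0.0206, adjusted p = 0.0767). Within sequencing runs the end-minus-inner difference was -3.03 (adjusted permutation p = 0.0482). Of the 3 control libraries of 4 dpf, at -0.127, -4.60 and -5.45, the 1st was the highest of the 9 early values and the others were the lowest. The 3rd of these libraries also had the highest call density ratio of its group, at 1.86 against 1.49 and 1.54. Their part in the difference was not tested beyond leaving out single libraries, which gave -2.22 to -1.55, the lowest of them without replicate A of 4 dpf and past the threshold (adjusted permutation p = 0.0455). The age effect of EGFP +ve cells exceeded that of control cells by 4.35 percentage points (exact permutation p = 0.0714 over the 9 ages, adjusted p = 0.198 over 6 such tests), and a difference between the cells in this respect was not shown.

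Between the sexes, the ends of EGFP +ve cells had lower mean methylation in females at all 5 ages from 35 to 70 dpf, by 1.48 percentage points on average (-1.48, permutation p = 0.299). Relative to the inner part the difference was -1.75 (permutation p = 0.0364, adjusted p = 0.0936, negative at 4 of 5 ages), which did not pass after adjustment. In the outermost 500 kb alone females had the lower mean at 5 of 5 ages, by 3.58 percentage points (-3.58). With the ends cut to 1 Mb the end-minus-inner difference was -3.21 (adjusted permutation p = 0.0289). With ends of 2 Mb, leaving out single libraries gave -2.29 to -1.43, with an adjusted permutation p of 0.00546 to 0.257. Of these 30 removals 1 passed, that of replicate C of the female EGFP +ve libraries of 40 dpf (-2.29, adjusted permutation p = 0.00546). In control cells the end-minus-inner difference between the sexes was 0.0937 (permutation p = 0.901). The difference between the 2 cell types in this sex effect was -1.84 (permutation p = 0.0992, adjusted p = 0.198).

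Calls were slightly denser at the ends in female than in male EGFP +ve libraries. The log2 density ratio was higher in females by 0.10 (permutation p = 0.00757, adjusted p = 0.0454), at 5 of 5 ages. At 35 dpf the density ratio was 1.34, 1.36 and 1.53 in females and 1.21, 1.07 and 1.34 in males, and at 40 dpf it was 1.55, 1.66 and 1.48 in females and 1.38, 1.47 and 1.37 in males. At 70 dpf the groups overlapped, with 1.42, 1.30 and 1.38 in females and 1.29, 1.30 and 1.39 in males. The call did not hold within sequencing runs (0.10, adjusted permutation p = 0.159), with ends of 1 Mb (0.09, adjusted permutation p = 0.363), or when any 1 of 21 of the 30 libraries was left out. In control cells the difference was -0.01 (permutation p = 0.917). The sex difference differed between the cell types by 0.109 (permutation p = 0.0952, adjusted p = 0.198), which did not pass. Calls per read at the ends were higher in females by 0.0943 on average in EGFP +ve cells and by 0.00502 in control cells. The part of calls per read in the density difference was not tested.

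**Figure D5:**
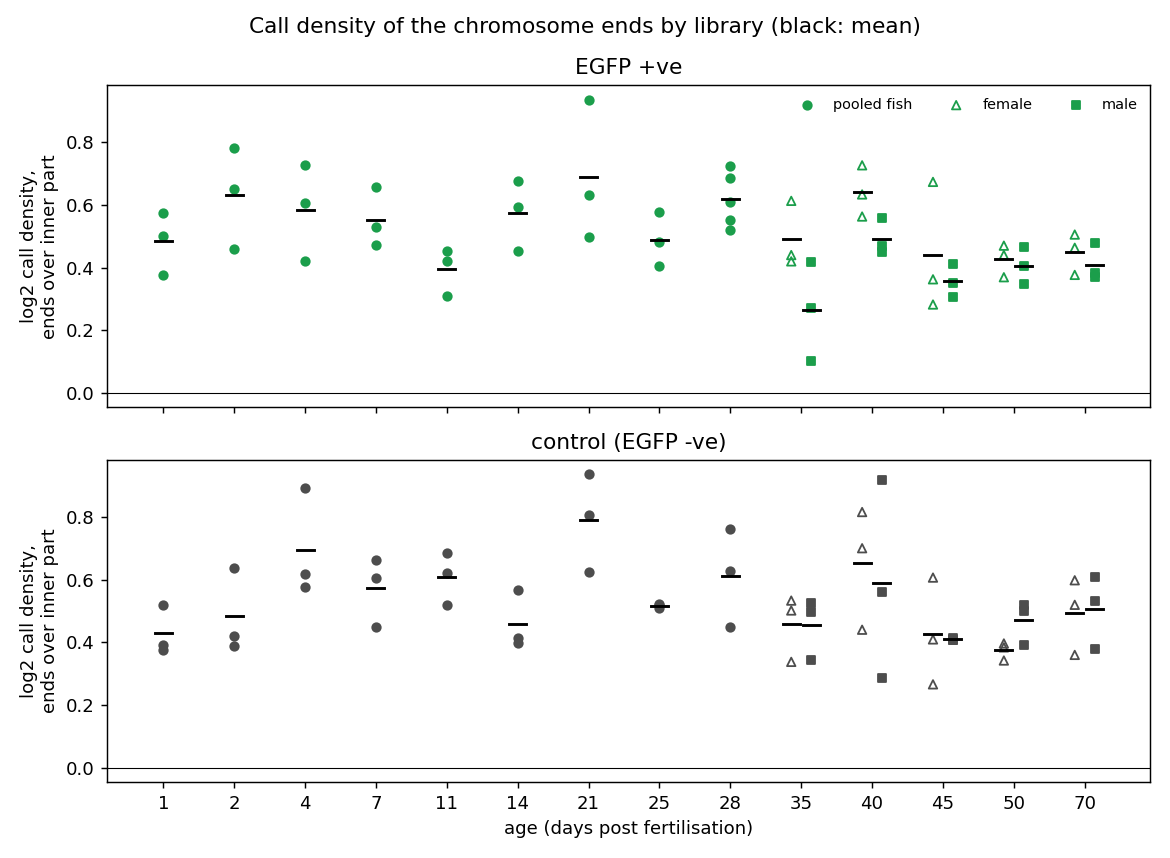
Log2 ratio of call density at the ends over the inner part in each library by age, EGFP +ve above and control below, with circles for pooled fish, open triangles for females and squares for males. Black bars are group means. All 116 libraries lie above 0, from 0.10 to 0.94.

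Call density at the ends also varied by sequencing run, with mean ratios of 1.39 to 1.53 over the 8 runs, and mean end-minus-inner methylation of -1.87 to 0.891 percentage points. Runs held 2 to 40 libraries and were not balanced over cells or ages, so comparisons whose call changed within runs are given above with their value within runs. Values within runs rest only on libraries whose run held both compared groups, and thus on a different set of libraries.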

How the data were processed

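The deposited files, 1 per library, hold 1 line per CG call with its read, chromosome, position and methylated or unmethylated state, and no normalization; the authors trimmed reads with Trim Galore, mapped them with Bismark and extracted calls with Bismark 0.19.0, per the labels on GRCz10. Whether duplicate reads had been removed is not given in the sources used here. The members and lists were chosen with earlier results of these data known. The age of 11 dpf follows the titles where a day field says 7.

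Methylation was the percentage of methylated calls and density the calls per Mb. Ends were compared with the inner part within libraries by sign-flip permutation, and groups by exchange of labels. Labels were exchanged within age and sex between cells, within age between the sexes, and without strata between ages. All tests were two-sided with 100000 draws or exact where fewer arrangements exist. Benjamini-Hochberg adjustment ran over 8 and 18 tests, and over 633 regions. Named ends were the 3 lowest and 3 highest in end-minus-inner methylation and in density relative to their chromosome; named windows the 3 with most and fewest calls and, from 100 calls, the 3 lowest and highest. Region tests were run on simulated calls, and group tests on simulated library values. Both were drawn independently, without the grouping of calls in reads. Python 3.11.15, numpy 2.4.6 and pandas 2.3.3 were used. P-values measure the spread between libraries, which the paper calls independent biological replicates within each sample type and age. Whether EGFP +ve and control libraries of the same letter came from the same fish is not stated.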

Additional observations from a re-analysis of the deposited data

How the results depend on the processing

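Of 472 listed alternatives over 30 results, 359 left the direction and the side of the threshold in place or, for counts of called ends, left the count similar. Removals of single libraries are listed only where they gave the lowest or highest value or changed the outcome. The tally is therefore not a share of all alternatives run. Those which did not are given here, as percentage points or log2 differences, and their cause was not tested. Every alternative left the call density of ends over inner part, and both comparisons of the outermost with the innermost 500 kb, with their direction and call.

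With ends of 1 Mb, males of 35-50 dpf differed between cells by 4.57 and the sexes in end-minus-inner methylation of EGFP +ve cells by -3.21, both then past the threshold. The end-minus-inner age difference of EGFP +ve cells turned to 0.0632 and the density difference of the sexes became 0.0914, not called, in EGFP +ve and 0.0235 in control cells. With ends of 3 Mb, females (2.89), males (3.61) and the end-minus-inner age difference of control cells (-1.85) passed, the sexes of control cells differed by -0.0674 in end-minus-inner methylation, and the density differences of the sexes were 0.0755, not called, and 0.00964. With ends weighted equally the control ends were -0.447 from the inner part, not called, and the end-minus-inner age difference of control cells passed at -2.52.

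With each read counted once, the ends were 0.579 from the inner part in control and -0.0230 in EGFP +ve cells, females (3.38) and males (4.23) of 35-50 dpf passed, and the density difference of the sexes in control cells was 0.000676. With the inner part weighted to calls per read the ends were at -0.177 and -0.262, neither called. Counting duplicate reads once left the density difference of the sexes in EGFP +ve cells at 0.10, not called. Without windows over 3 times the median calls, females passed at 2.68 and the end-minus-inner sex difference of control cells was -0.0504.

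Within sequencing runs, females (3.93), males (6.39) and the end-minus-inner age difference of control cells (-3.03) passed. The age difference of control ends turned to -2.58, end-minus-inner methylation to 0.0704 between cells, -0.174 between the sexes of control cells and 0.455 between ages of EGFP +ve cells. The density differences were 0.10, not called, and 0.00299 between the sexes of EGFP +ve and control cells, and -0.0129 and 0.0101 between ages.

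Further alternatives were chosen after seeing the data. With start ends alone, the difference between cells was 1.92 at 1-28 dpf and the age difference of EGFP +ve cells 4.08, neither called, with 0.934 at 70 dpf, -0.171 between ages of control cells, -0.151 in end-minus-inner methylation between the sexes of control cells, and a density difference of 0.0653, not called, between the sexes of EGFP +ve cells. With far ends alone, males passed at 4.52, the end-minus-inner age difference of EGFP +ve cells was 0.329 and the density difference of the sexes in control cells 0.0420. Without the outermost 500 kb the ends were 0.823 above the inner part in control and 0.525 in EGFP +ve cells. Leaving out each of the 48 ends gave -0.988 to -0.649 in control and -1.30 to -0.840 in EGFP +ve cells.

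Leaving out replicates or single libraries gave 2.13 to 2.94 between cells at 1-28 dpf, 1.69 to 3.46 in females, 1.93 to 5.86 in males and -2.38 to 0.659 at 70 dpf. The age difference of EGFP +ve ends was 4.39 to 5.99. End-minus-inner methylation differed by -2.29 to -1.43 between the sexes of EGFP +ve cells, by -0.388 to 0.882 between those of control cells, and by -0.779 to 0.0412 and -2.35 to -1.54 between ages of EGFP +ve and control cells. Density differed by 0.0786 to 0.120 and -0.0573 to 0.0572 between the sexes of EGFP +ve and control cells and by -0.0459 to 0.0808 between ages of EGFP +ve cells. The ends called against the inner part were 7 to 9 in control and 6 to 9 in EGFP +ve cells, and those called between cells 0 to 1. Of all 633 regions, 161 to 168 were called against the inner part in control and 122 to 154 in EGFP +ve cells. Between cells 1 to 9 of all regions were called for methylation. Replicates D and E exist for EGFP +ve cells of 28 dpf alone.

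The labels do not say what a replicate letter shares. Deviations of libraries with the same letter, age and sex correlated at -0.0848 for end methylation, 0.107 for end-minus-inner methylation and 0.141 for density over 57 pairs. Counting error is a large part of these deviations, so low correlations cannot show whether libraries of the same letter are paired. The letters were taken as names because the labels give no pairing. With the replicate block the difference between cells at 1-28 dpf was 2.66 (adjusted permutation p = 0.0249), and the block changed no other call. No paired analysis was possible for the age comparisons because no letter joins fish of different ages. At 686 to 14794 calls per library at the ends, small differences could not be called in single libraries, and groups of 3 allow an exact p no lower than 0.10, which is why groups were compared over ages.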
